A study of Mus musculus with 8 samples.

Results

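Gene expression after 300 min in bicuculline was compared with that at 0 min in cultured hippocampal neurons of ICR mice, an outbred laboratory strain. The 300 min and 0 min groups hold 4 of the 8 arrays of the series, chosen by the exposure time in their labels, and 19938 genes were compared between them. All neurons were taken from the hippocampus of embryos at E17.5 and had been in culture for 10 days, and no genetic change is named in any group. The 300 min group received 50 µM bicuculline for 300 min, the 0 min group for no time, and the remaining 4 arrays, at 30 and 180 min of the same dose, enter through the shared estimate of spread and as times to compare with. Each time has 2 replicates that the labels call biological. Separate dissections are not named, so a p-value here reflects how far these arrays differ, which may be technical in part. No culture kept for 300 min with vehicle alone is named, so the elapsed time and bicuculline cannot be told apart in any change below.

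Bicuculline blocks GABA-A receptors, the chloride channels through which most fast inhibition in the forebrain runs, so that excitatory networks in a dish fire in bursts. Calcium entering through NMDA receptors and voltage-gated channels then drives kinases that phosphorylate CREB, SRF partners and MEF2, and these factors switch on immediate-early genes without new protein synthesis. A later wave of genes encodes neurotrophins, neuropeptide enzymes, synaptic scaffolds and feedback inhibitors. In cultured hippocampal neurons this programme is known for strengthening some synapses and, with long exposure, for scaling excitation down.

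Signals are on a log2 scale, so that a difference of 1 is a doubling in signal. A gene was taken as higher or lower where limma, fitted to all 8 arrays, gave a Benjamini-Hochberg adjusted p under 0.05 over the 19938 genes. At 300 min, 57 genes differed from 0 min (0.286% of genes tested), of which 45 were higher (0.226%) and 12 lower (0.0602%). The median change over all genes was -0.0025. The rises were larger than the falls: they ran from 0.65 to 2.53, with 18 of at least 2-fold, while the falls ran from -0.61 to -1.13, with 1 of at least 2-fold. In all 57 genes both arrays at 300 min lay to one side of both arrays at 0 min, which was also so for 7658 of all genes (38.4%). As the arrays of these 57 genes do not overlap, leaving out any 1 of the 8 arrays could not reverse a sign. Most of the 57 lost their call in at least 1 of these fits. A fit without a 0 or 300 min array rests on 1 array at that time. Such fits also called genes outside the 57, so their numbers of higher and lower genes do not count how many of the 57 were kept. Leaving out either 30 min array gave 31 and 2.

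**Figure D1:**
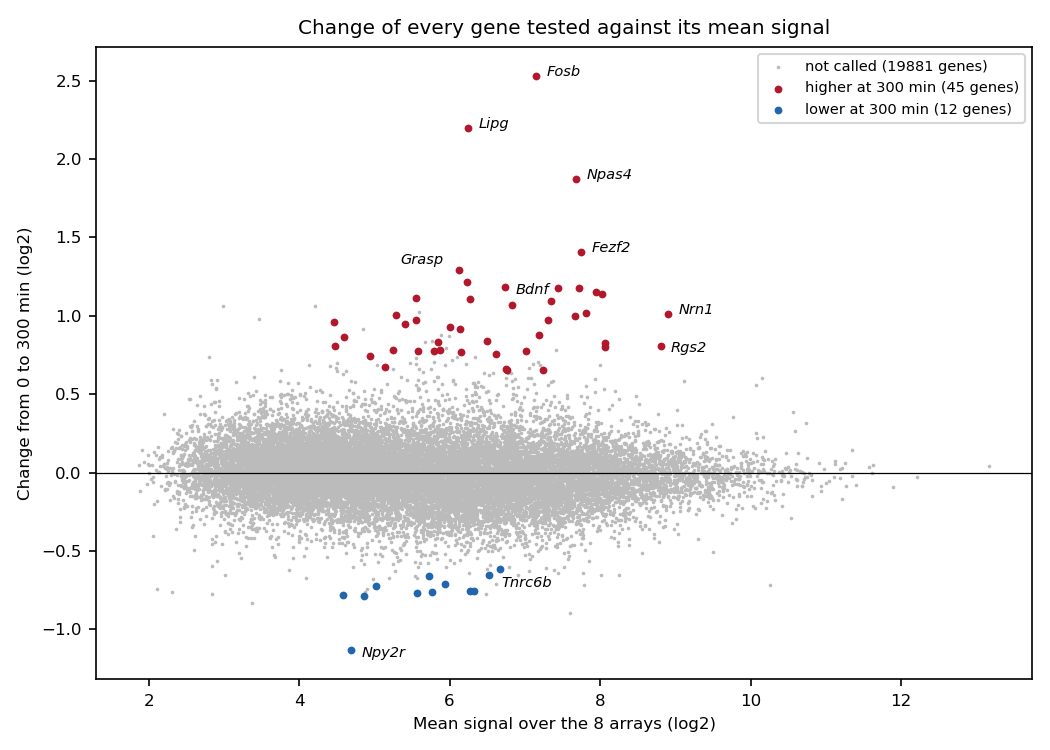
Each point is 1 of the 19938 genes tested, with its mean signal over the 8 arrays (log2) on the x axis and its change from 0 to 300 min (log2, mean of 2 arrays minus mean of 2 arrays) on the y axis. The 45 higher genes (red) reach 2.53 at Fosb, and the 12 lower genes (blue) reach -1.13 at Npy2r.

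To set the letters beside the values, the sequence before the transcription start is shown for higher genes chosen by motif matches. RefSeq promoters (GRCm38.p6, 250 bases before to 50 after a start) were found for 34 of the 45 higher and 10 of the 12 lower genes. They were searched on both strands for the full CRE, TGACGTCA, which binds CREB, for its half-site TGACG, of which each full CRE holds 1 on each strand, and for TGANTCA, the AP-1 site bound by Fos and Jun proteins. The promoters below are those of higher genes with a full CRE or AP-1 match before the start (Pcsk1, Maff, Bdnf and Fezf2) and of those with at least 3 half-sites there (Nr4a2, Nr4a1 and Homer1), the latter chosen after their matches were seen. Each is printed 5′ to 3′ in the direction of transcription, with these matches in capitals (CGTCA is the half-site read on the opposite strand), and ends at base -1, just before the start.
Pcsk1: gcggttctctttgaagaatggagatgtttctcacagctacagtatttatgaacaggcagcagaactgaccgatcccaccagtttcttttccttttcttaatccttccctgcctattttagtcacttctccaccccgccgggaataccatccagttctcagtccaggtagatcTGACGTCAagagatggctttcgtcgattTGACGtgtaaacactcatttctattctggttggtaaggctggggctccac
Maff: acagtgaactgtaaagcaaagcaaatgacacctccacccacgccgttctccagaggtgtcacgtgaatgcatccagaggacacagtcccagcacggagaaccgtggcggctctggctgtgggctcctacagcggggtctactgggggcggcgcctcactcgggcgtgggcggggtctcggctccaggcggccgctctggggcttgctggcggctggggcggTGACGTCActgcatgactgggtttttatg
Bdnf: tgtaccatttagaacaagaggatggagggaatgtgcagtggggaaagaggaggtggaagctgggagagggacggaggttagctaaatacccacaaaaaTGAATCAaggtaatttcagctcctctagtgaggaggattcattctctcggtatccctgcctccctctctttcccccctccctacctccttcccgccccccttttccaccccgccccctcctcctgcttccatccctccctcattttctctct
Fezf2: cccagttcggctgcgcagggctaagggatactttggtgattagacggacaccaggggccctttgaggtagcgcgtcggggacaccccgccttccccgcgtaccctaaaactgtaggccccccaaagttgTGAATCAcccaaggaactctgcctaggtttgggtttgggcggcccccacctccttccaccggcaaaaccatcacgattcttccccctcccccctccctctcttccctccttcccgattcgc
Nr4a2: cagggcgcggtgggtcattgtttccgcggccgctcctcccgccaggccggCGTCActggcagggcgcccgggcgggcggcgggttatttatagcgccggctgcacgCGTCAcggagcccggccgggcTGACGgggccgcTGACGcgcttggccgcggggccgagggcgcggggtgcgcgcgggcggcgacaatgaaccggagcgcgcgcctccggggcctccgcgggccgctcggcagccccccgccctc
Nr4a1: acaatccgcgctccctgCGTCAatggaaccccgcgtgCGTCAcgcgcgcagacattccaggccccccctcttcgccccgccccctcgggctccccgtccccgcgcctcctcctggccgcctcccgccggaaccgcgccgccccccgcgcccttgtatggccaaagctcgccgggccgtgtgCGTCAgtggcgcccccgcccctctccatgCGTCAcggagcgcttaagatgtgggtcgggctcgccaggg
Homer1: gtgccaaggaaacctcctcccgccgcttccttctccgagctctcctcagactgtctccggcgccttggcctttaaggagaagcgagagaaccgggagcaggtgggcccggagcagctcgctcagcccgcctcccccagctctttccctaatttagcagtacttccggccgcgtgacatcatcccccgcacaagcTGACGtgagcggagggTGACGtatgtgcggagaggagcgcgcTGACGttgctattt
Pcsk1 lies on the plus strand at chr13:75089607-75089856, Maff on the plus strand at chr15:79347270-79347519 and Bdnf, at 1 of its alternative starts, on the plus strand at chr2:109676782-109677031. Fezf2 lies on the minus strand at chr14:12345866-12346115 and Nr4a2 on the minus strand at chr2:57124004-57124253. Nr4a1 lies on the plus strand at chr15:101266596-101266845 and Homer1 on the plus strand at chr13:93303507-93303756.

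In Pcsk1 the full CRE began at base -78 and a further half-site at -50, and in Maff the full CRE began at -29. The AP-1 match began at -152 in Bdnf and at -121 in Fezf2. Nr4a2 held 4 half-sites, at -200, -144, -123 and -111, Nr4a1 held 4, at -233, -213, -69 and -40, and Homer1 held 3, at -56, -40 and -14. A half-site stood in a promoter of 22 of the 34 higher genes (64.7%), against 28.0% of the 15562 genes tested that have a promoter in the table, and in 4 of the 10 lower genes. Counted over promoters, the shares were 24 of 49 (49.0%) for higher genes, 5 of 15 (33.3%) for lower genes and 25.0% for all. The promoters of higher genes were richer in G and C, with a median of 62.7% against 57.7%. Among all promoters between 49.7% and 68.3% G and C, the lower and upper quartiles of the higher genes, 28.8% held a half-site. The share among higher genes within this window was not computed, so the 49.0% above covers an unlike set of promoters. The part of G and C content in the half-site shares was not tested. A full CRE stood in 3 of 34 higher genes (8.82%, against 2.72% of all) and an AP-1 match also in 3 (8.82%, against 8.06%).

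Other motifs were searched on both strands in the same windows. The Egr site GCGNGGGCG was present in 9 of the 34 higher genes (26.5%, against 9.33% of all) and in 3 of the 10 lower genes (30%). Over promoters the shares were 18.4% for higher genes, 20% for lower genes and 8.17% for all. This motif is rich in G and C, and it was not compared among promoters of like G and C content. The E-box CACGTG, bound by clock and Myc proteins, was present in 6 of the higher genes (17.6%, against 9.52%) and in 2 of the lower genes. The Nr4a site AAAGGTCA and the SRF CArG box were present in 0 of 34, against 1.5% and 1.63% of all genes. A match describes the letters only, and no match says no more than that these letters are not in the window.

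**Figure D2:**
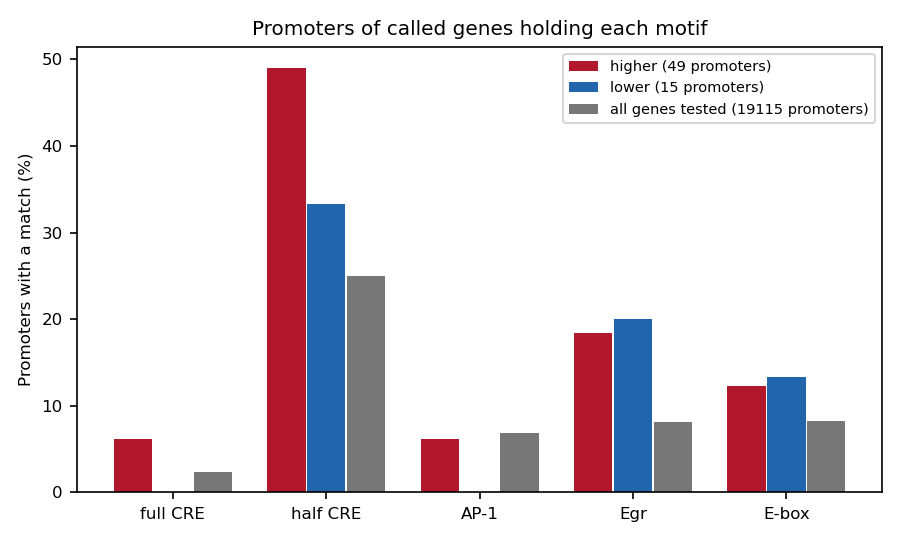
Bars give the percentage of promoters of 300 bases with at least 1 match on either strand, for higher genes (red, 49 promoters), lower genes (blue, 15 promoters) and all genes tested (grey, 19115 promoters). The CRE half-site is in 49.0% of the promoters of higher genes and 25.0% of all promoters.

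The immediate-early transcription factors were still partly raised. Of 29 measured, 8 were higher at 300 min and 0 lower, with a median change of 0.17, and 21 had a positive change. Fosb, a subunit of AP-1, showed the largest rise of any gene tested. Its signal was 5.07 and 5.34 on the 0 min arrays and 7.45 and 8.02 on the 300 min arrays, a change of 2.53 ± 0.22 (SE, n = 2 arrays per time), or 5.78-fold (limma, adjusted p = 9.27e-05). Npas4, a neuron-specific factor that controls inhibitory synapse number, gave 5.67 and 5.96 at 0 min and 7.54 and 7.83 at 300 min, a change of 1.87 ± 0.14 (adjusted p = 2.72e-05). The lowest 300 min array lay 2.12 above the highest 0 min array in Fosb and 1.58 above it in Npas4.

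Orphan nuclear receptors of the Nr4a family, which bind DNA without a known ligand, were the next members by size. Nr4a2 read 6.97 and 7.02 at 0 min and 7.86 and 8.49 at 300 min, a change of 1.18 ± 0.21 (adjusted p = 0.0326). Nr4a1 read 6.71 and 7.16 at 0 min and 8.03 and 8.12 at 300 min, a change of 1.14 ± 0.15 (adjusted p = 0.00452). The 300 min arrays of Nr4a2 differed from each other more than those of Nr4a1, while the 0 min arrays of Nr4a1 differed more. Fos, the partner of Jun in AP-1, read 6.11 and 6.23 at 0 min and 7.05 and 7.47 at 300 min, a change of 1.09 ± 0.15 (adjusted p = 0.00452). Atf3, a stress-responsive bZIP repressor, rose by 0.98 ± 0.19 (adjusted p = 0.0497), Fosl2, a slower member of the Fos family, by 0.83 ± 0.11 (0.00482) and Maff, a small Maf protein, by 0.79 ± 0.14 (0.0326).

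Members of the list that did not pass include Egr1, a zinc-finger factor that marks recent activity. Egr1 was below its starting level, at 6.47 and 6.49 at 0 min and 5.79 and 5.99 at 300 min (change -0.59, adjusted p = 0.103), and the arrays did not overlap. Nr4a3 had a change of 0.44 (adjusted p = 0.309) and Egr4 one of 0.40 (adjusted p = 0.422). Fosb and Npas4 kept an adjusted p under 0.05 without any 1 array. Fos and Nr4a1 lost it only without 0 min replicate 1, and Nr4a2, Atf3, Fosl2 and Maff lost it without either 0 min array. Leaving out either 30 min array, or 300 min replicate 2, left 5.

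**Figure D3:**
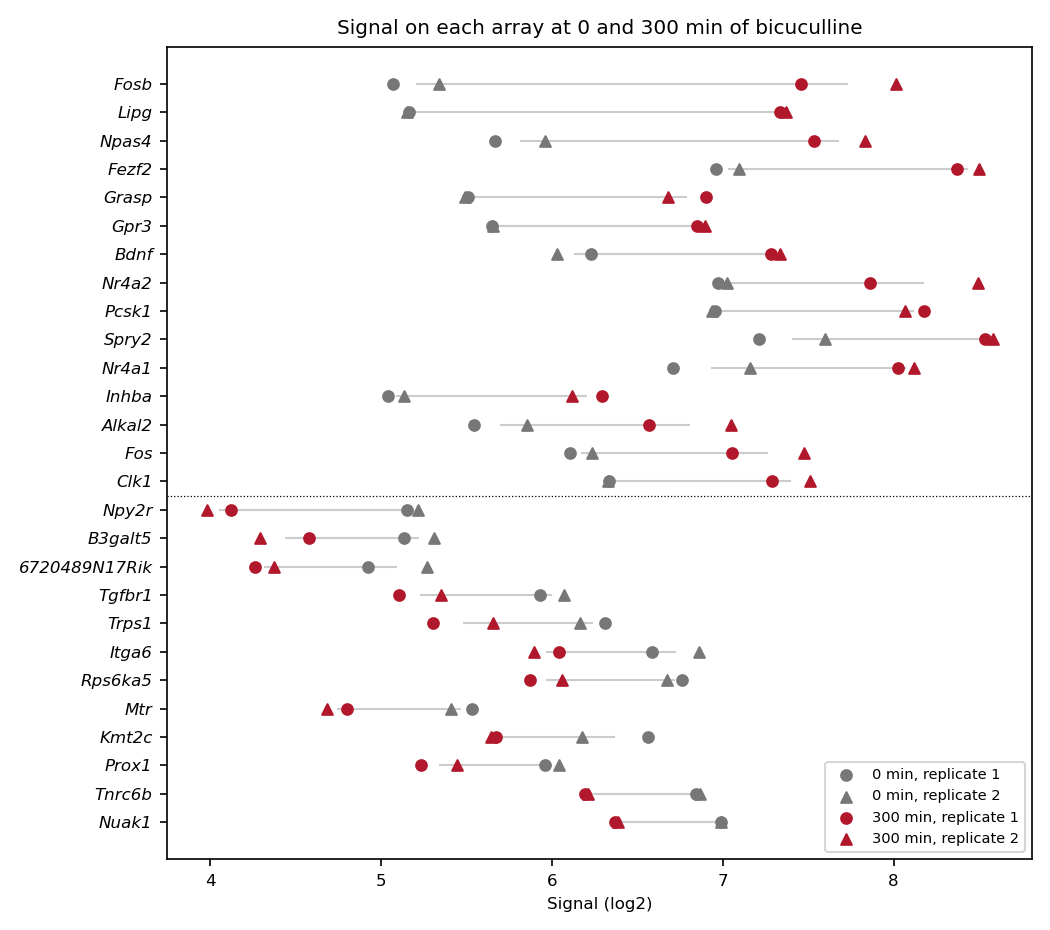
Points give the signal (log2, x axis) of each array at 0 min (grey) and 300 min (red) for the 15 largest rises (above the dotted line) and all 12 falls (below it), with circles for replicate 1 and triangles for replicate 2 and a line joining the 2 means. Both 300 min arrays lie to one side of both 0 min arrays in each of these genes.

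Set against 30 min rather than 0 min, most changes of the immediate-early factors were falls. Of the 29, 11 were lower at 300 min than at 30 min and 1 was higher (limma, adjusted p under 0.05), where 163 of all genes differed (0.818%), 127 of them higher and 36 lower. Npas4 was 2.01 lower at 300 than at 30 min (adjusted p = 5.22e-06), Fos 1.19 lower (0.00107) and Nr4a1 1.02 lower (0.0047), so these 3 were above 0 min and below 30 min at once. Fosb differed from 30 min by -0.21 ± 0.22 (adjusted p = 0.834). Fosl2 was the member that was higher at 300 than at 30 min, by 0.75 ± 0.12 (adjusted p = 0.00519). The other members lower than at 30 min were Egr1, Egr2, Egr4, Jun, Junb, Klf4, Ier2 and Btg2, named after their values were seen. Their changes from 0 to 300 min ran from -0.59 to 0.40, and none of them passed against 0 min. Egr2, a relative of Egr1, was 1.47 above 0 min at 30 min and 0.00 from it at 300 min, and Btg2, an antiproliferative factor, was 1.85 above it and then 0.10.

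Rapid effector genes, which are induced early but encode enzymes and synaptic proteins rather than transcription factors, had 5 of 19 measured members higher, 0 lower and a median change of 0.37. Per1, a clock repressor with CRE sites, rose from 6.85 and 6.73 to 7.74 and 7.78, a change of 0.97 ± 0.12 (adjusted p = 0.00179). Homer1, whose short form uncouples metabotropic glutamate receptors from their scaffold, rose from 6.90 and 6.72 to 7.69 on both arrays, a change of 0.88 ± 0.12 (adjusted p = 0.00452). The probes of a transcript cluster lie along the whole gene, so the short and long forms of Homer1 were not separated. Ptgs2, the inducible cyclooxygenase of prostaglandin synthesis, rose by 0.95 ± 0.17 (adjusted p = 0.0332), Rgs2, which speeds the turn-off of G proteins, by 0.81 ± 0.12 (0.0109) and Sgk1, a kinase that raises channel and transporter numbers at the membrane, by 0.78 ± 0.13 (0.0162). Sik1 (change 0.44, adjusted p = 0.199), Csrnp1 (0.66, 0.209) and Plk3 (0.38, 0.258) had arrays that did not overlap but did not pass. Arc, a regulator of AMPA receptor removal named after its values were seen, was 2.38 above 0 min at 30 min and 0.26 above it at 300 min, 2.12 lower than at 30 min (adjusted p = 1.9e-06). Per1 kept its call without any 1 array. Homer1 lost it without 0 min replicate 2, and the list then held 1 called member. It held 2 without 0 min replicate 1 or without 300 min replicate 2.

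Delayed genes had the highest median change of the 32 lists. Of 32 measured, 10 were higher and 0 lower, the median change was 0.55, and 30 had a positive change. For 27 of the 32, both 300 min arrays lay above both 0 min arrays, against 3755 of all 19938 genes, and 26 had an unadjusted p under 0.05 in that direction, against 848 of all genes. This list was written with earlier results of these data known, so its direction is not independent evidence. Lipg, a secreted phospholipase of the lipoprotein lipase family, had the second largest rise of all genes. It read 5.16 and 5.15 at 0 min, and 7.34 and 7.37 at 300 min, a change of 2.20 ± 0.13, or 4.59-fold (adjusted p = 1.1e-06). The 2 arrays of each of these times were close, while those at 30 min (5.21 and 5.41) and 180 min (7.06 and 7.27) lay further apart.

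Fezf2, a zinc-finger factor known for specifying subcortical projection neurons, read 6.96 and 7.10 at 0 min and 8.37 and 8.50 at 300 min, a change of 1.41 ± 0.12 (adjusted p = 9.22e-05). Grasp, a scaffold that binds group I metabotropic glutamate receptors, read 5.51 and 5.49 at 0 min and 6.90 and 6.68 at 300 min, a change of 1.29 ± 0.12 (adjusted p = 0.000147). Gpr3, a receptor that raises cyclic AMP without a bound ligand, read 5.65 on both arrays at 0 min and 6.85 and 6.89 at 300 min, a change of 1.22 ± 0.12 (adjusted p = 0.000156). The groups were well apart in all of these, and none of them lost its call without any 1 array.

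Secreted factors and their processing enzymes form the next part of the delayed list. Bdnf, the neurotrophin that acts through TrkB, read 6.23 and 6.03 at 0 min and 7.28 and 7.34 at 300 min, a change of 1.18 ± 0.13 (adjusted p = 0.000593). Pcsk1, the convertase that cuts neuropeptide precursors, read 6.95 and 6.93 at 0 min and 8.18 and 8.06 at 300 min, a change of 1.18 ± 0.14 (adjusted p = 0.00179). Both genes kept their calls without any 1 array, and in both the 0 min and 300 min arrays were about 1 apart. Inhba, the activin beta A subunit, read 5.04 and 5.14 at 0 min and 6.29 and 6.12 at 300 min, a change of 1.12 ± 0.16 (adjusted p = 0.00681). Alkal2, a ligand of the receptor kinases Alk and Ltk, read 5.54 and 5.85 at 0 min and 6.57 and 7.05 at 300 min, a change of 1.11 ± 0.16 (adjusted p = 0.00676). Inhba lost its call without either 0 min array or without 300 min replicate 1, and Alkal2 without 0 min replicate 1 or 300 min replicate 2.

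Nrn1, a membrane-anchored protein that promotes neurite and spine growth, rose by 1.01 ± 0.15 (adjusted p = 0.00681), from 8.46 and 8.57 to 9.51 and 9.54. Penk, the enkephalin precursor, rose by 0.93 ± 0.16 (adjusted p = 0.0225). The next members by p lay just short of the threshold: Slc2a3, the neuronal glucose transporter (change 0.58, adjusted p = 0.0547), Rgs4 (0.61, 0.0634) and Acan, a proteoglycan of perineuronal nets (0.83, 0.0634). Against 30 min, 12 of the 32 were higher at 300 min and 0 lower. Of the 10 called members, 6 kept their calls without 0 min replicate 1, and 7 without 0 min replicate 2 or 300 min replicate 1.

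**Figure D4:**
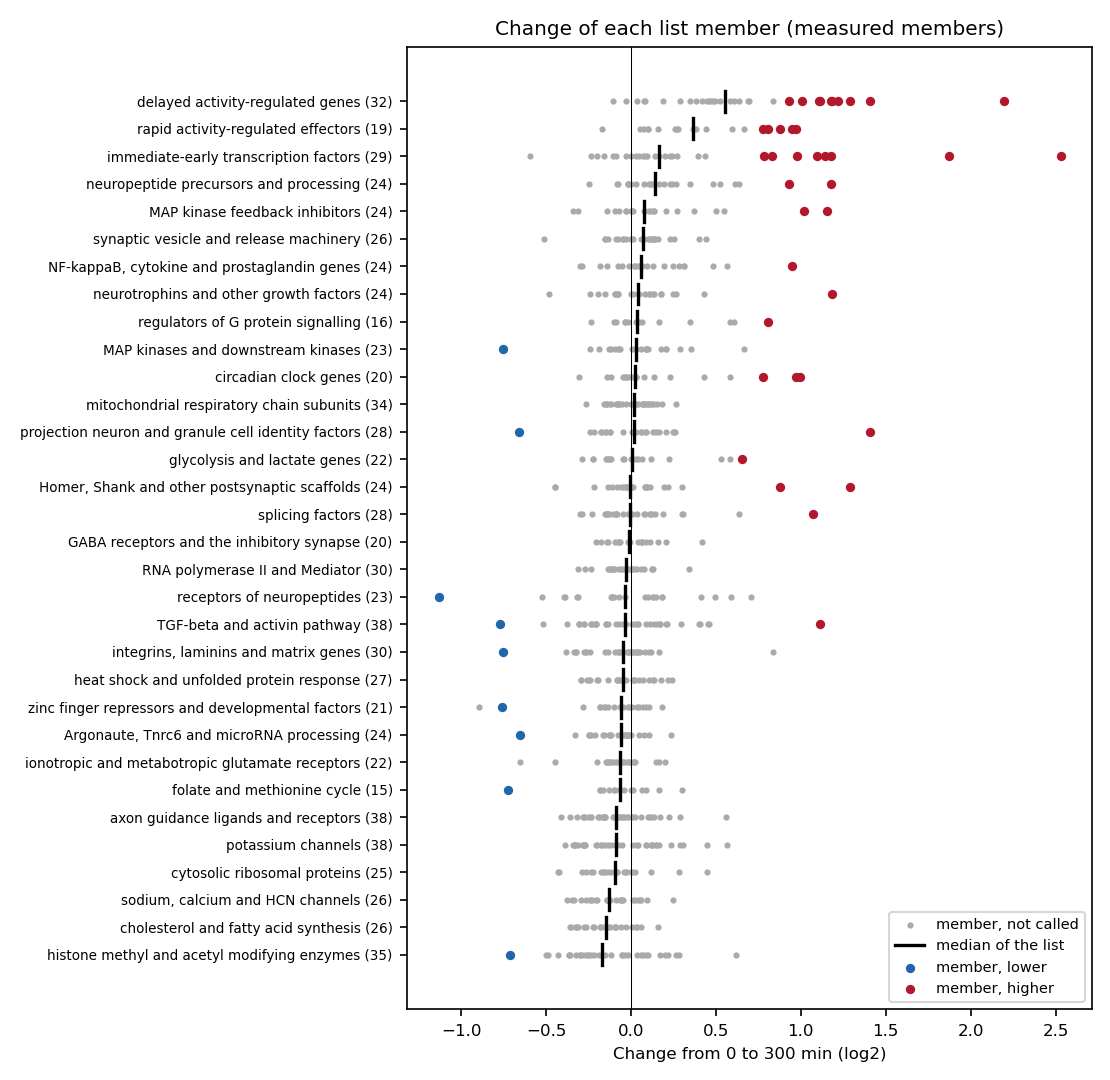
Each row is a gene list with its number of measured members, and each point is 1 member's change from 0 to 300 min (log2, x axis), with called members in red (higher) or blue (lower) and the list's median as a black bar. The delayed genes have the highest median, 0.55, and the histone-modifying enzymes the lowest, -0.17.

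Among 24 measured feedback inhibitors of MAP kinase signalling, 2 were higher, 0 were lower and the median change was 0.08. Spry2, which blocks receptor tyrosine kinase signalling to Ras, read 7.21 and 7.60 at 0 min and 8.54 and 8.58 at 300 min, a change of 1.15 ± 0.14 (adjusted p = 0.00179), and kept its call without any 1 array. Dusp4, a nuclear phosphatase of ERK and JNK, rose by 1.02 ± 0.14 (adjusted p = 0.00452), a call lost without 0 min replicate 1 or 300 min replicate 1. Spry4 (0.55, adjusted p = 0.144), Dusp14 (0.50, 0.148) and Errfi1 (0.37, 0.364) did not pass. Among the 16 regulators of G protein signalling, Rgs2 was the 1 called gene, and Rgs4, Rgs16 (0.58, adjusted p = 0.128) and Rgs11 (0.35, 0.518) did not pass. Rgs2 lost its call without either 0 min array or without 300 min replicate 2.

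Of 23 MAP kinases and kinases below them, 1 was lower and 0 higher, with a median change of 0.03. Rps6ka5, also called MSK1, phosphorylates CREB and histone H3 downstream of ERK and p38. It read 6.76 and 6.67 at 0 min and 5.87 and 6.06 at 300 min, a change of -0.75 ± 0.12 (adjusted p = 0.016), and lost its call without either 0 min array or without 300 min replicate 1. Map3k5, an upstream kinase of JNK and p38, had a change of 0.66 (adjusted p = 0.113), Mknk2 one of 0.35 (0.31) and Mapk4 one of 0.29 (0.499).

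Among 24 measured precursors and processing enzymes, Pcsk1 and Penk were higher, 0 were lower and the median change was 0.14. Adcyap1, the PACAP precursor, had a change of 0.61 (adjusted p = 0.0604), Scg2 one of 0.48 (0.144) and Vgf one of 0.52 (0.199), each with arrays that did not overlap. Of 23 peptide receptors, 1 was lower and 0 higher, with a median change of -0.03. Npy2r, the presynaptic Y2 receptor through which neuropeptide Y curbs glutamate release, read 5.15 and 5.22 at 0 min and 4.12 and 3.98 at 300 min. Its change of -1.13 ± 0.14 (adjusted p = 0.00167) was the largest fall among the called genes, and both 300 min arrays lay below the level of 4.46 that 95% of olfactory receptor genes, which neurons of the hippocampus are not known to use, stayed under. Npy2r kept its call without any 1 array. The somatostatin receptors Sstr1 (0.71, adjusted p = 0.0552) and Sstr3 (0.59, 0.0608) had positive changes and the neurotensin receptor Ntsr1 a negative one (-0.52, 0.128). Hcrtr2, the orexin type 2 receptor, stood outside the list and rose by 0.74 ± 0.13 (adjusted p = 0.0341).

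In the TGF-beta and activin pathway 1 gene was called in each direction. Of 38 measured members, Inhba was higher, Tgfbr1 was lower and the median change was -0.04. Tgfbr1, the type I receptor that phosphorylates Smad2 and Smad3, read 5.93 and 6.07 at 0 min and 5.10 and 5.35 at 300 min, a change of -0.77 ± 0.13 (adjusted p = 0.0285). The arrays did not overlap. Bmp3 (0.46, adjusted p = 0.242), Smad7, an inhibitor of the pathway (0.45, 0.266), and Tgfb3 (-0.52, 0.275) did not pass. Neither Inhba nor Tgfbr1 was called without either 0 min array or without 300 min replicate 1, and Tgfbr1 was also lost without either 30 min array. Among 24 neurotrophins, growth factors and their receptors, Bdnf was the 1 higher gene and 0 were lower, with Igf1r (-0.48, adjusted p = 0.242), Fgfr2 (0.43, 0.414) and Ret (-0.24, 0.605) next by p.

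Of 20 measured circadian clock genes, 3 were higher, 0 lower and the median change was 0.02. Beside Per1, Nfil3, a bZIP repressor, rose by 1.00 ± 0.14 (adjusted p = 0.00491), from 6.89 and 7.23 to 7.93 and 8.18, and Per2 rose by 0.78 ± 0.13 (adjusted p = 0.0207), from 5.34 and 5.45 to 6.06 and 6.29. The other repressors Cry1 (0.58, adjusted p = 0.217) and Cry2 (0.43, 0.226) had positive changes that did not pass, and Bhlhe40 had one of -0.31 (0.53). Without 0 min replicate 1 or 300 min replicate 2, Per1 alone of the list was called, and 2 of the 3 were called without 0 min replicate 2. Usp2, a deubiquitinase with known links to the clock that stood in no list, rose by 0.65 ± 0.12 (adjusted p = 0.0432).

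Postsynaptic scaffolds had 2 of 24 members higher, Grasp and Homer1, both of which bind metabotropic glutamate receptors, 0 lower and a median of 0.00. Lrrc7 (-0.45, adjusted p = 0.398), Baiap2 (0.30, 0.468) and Synpo (-0.45, 0.472) followed by p. The genes of glutamate receptors, GABA receptors and the inhibitory synapse gave no calls with limma. Of 22 glutamate receptor genes, 0 were called, and 2 had an unadjusted p under 0.05, both lower: Grin2b, an NMDA receptor subunit (-0.65, adjusted p = 0.242), and Grm7 (-0.45, 0.255). Grin2b read 8.61 and 7.91 at 0 min and 7.73 and 7.48 at 300 min, so that its 0 min arrays lay 0.70 apart. Of 20 genes of GABA receptors and the inhibitory synapse, 0 were called and 1, the chloride importer Slc12a2 (0.42, adjusted p = 0.52), had an unadjusted p under 0.05.

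Voltage-gated channels gave 0 calls as well. Of 38 potassium channel genes, 3 had an unadjusted p under 0.05 with a higher signal and 10 with a lower one, around a median change of -0.09. Over all 19938 genes tested, 848 passed that unadjusted threshold with a higher signal and 939 with a lower one. Kcna1 had a change of 0.57 (adjusted p = 0.119), Kcnn1 one of -0.39 (0.284) and Kcnj4 one of 0.45 (0.358). Of 26 sodium, calcium and HCN channel genes, 0 were higher and 3 lower at an unadjusted p under 0.05, with a median of -0.13, and Cacna1i (-0.38, adjusted p = 0.354) had the smallest p. That median ran from -0.18 to -0.03 as single arrays were left out. Of 26 vesicle and release genes, 0 were called and 3 had an unadjusted p under 0.05. One of the 26 passed once 0 min replicate 2 was left out. Of 38 axon guidance genes, 0 were called and 5 had an unadjusted p under 0.05, with the netrin receptor Unc5b the nearest (0.56, adjusted p = 0.0825).

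Slc16a1, the monocarboxylate transporter that carries lactate, was the 1 called gene of 22 for glycolysis and lactate, at 6.85 and 7.03 at 0 min and 7.58 and 7.61 at 300 min (change 0.66 ± 0.13, adjusted p = 0.046). The glucose transporters Slc2a3 and Slc2a1 (0.53, adjusted p = 0.271) had positive changes and Slc16a3 a negative one (-0.29, 0.55). The call of Slc16a1 held only with all arrays or without a 180 min array. Cholesterol and fatty acid genes had 0 calls of 26, a median change of -0.15 and 7 members with an unadjusted p under 0.05, all lower (against 939 of 19938 genes), with Ebp (-0.35, adjusted p = 0.349), Insig1 (-0.32, 0.428) and Acaca (-0.32, 0.457) first. Respiratory chain subunits (34 measured), cytosolic ribosomal proteins (25), heat shock and unfolded protein genes (27) and RNA polymerase II with Mediator (30) had 0 calls each. Their medians were 0.02, -0.09, -0.05 and -0.03, and 1, 4, 1 and 1 of their members had an unadjusted p under 0.05.

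Among 28 splicing factors, Clk1 was higher and 0 were lower. Clk1 encodes a kinase that phosphorylates SR splicing proteins, and its own transcript is spliced in response to stress. It read 6.33 on both arrays at 0 min and 7.29 and 7.51 at 300 min, a change of 1.07 ± 0.18 (adjusted p = 0.0185). Its relative Clk4 had a change of 0.64 (adjusted p = 0.0516). Clk1 lost its call when any 0 min or 300 min array was left out. Among 24 NF-kappaB, cytokine and prostaglandin genes, Ptgs2 was the 1 higher gene and 0 were lower, with Rel (0.56, adjusted p = 0.0875) and Nfkbiz (0.48, 0.315) next, and Ptgs2 was called with all arrays or without a 180 min array.

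The 12 lower genes come from many classes, with 1 called member in each list that holds any. B3galt5, a galactosyltransferase of glycolipids and glycoproteins, read 5.13 and 5.31 at 0 min and 4.58 and 4.29 at 300 min, a change of -0.79 ± 0.14 (adjusted p = 0.0293). Trps1, a GATA-type repressor, read 6.31 and 6.16 at 0 min and 5.30 and 5.66 at 300 min, a change of -0.76 ± 0.14 (adjusted p = 0.042), while a second transcript cluster of Trps1 had a change of -0.23 ± 0.13. Trps1 was the 1 called gene of 21 zinc finger repressors and developmental factors. In the same list Zbtb20, a repressor of hippocampal development, had a change of -0.89 that did not pass (adjusted p = 0.162), and its 0 min arrays, at 8.51 and 7.70, lay further apart than its 300 min arrays, at 7.24 and 7.19. Itga6, the alpha 6 integrin that binds laminin, read 6.59 and 6.86 at 0 min and 6.04 and 5.90 at 300 min, a change of -0.76 ± 0.13 (adjusted p = 0.0285), and was the 1 called gene of 30 integrins, laminins and matrix genes.

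Chromatin and RNA regulators are among the falls. Kmt2c, a histone H3 lysine 4 methyltransferase, read 6.56 and 6.17 at 0 min and 5.67 and 5.64 at 300 min, a change of -0.71 ± 0.14 (adjusted p = 0.046). It was the 1 called gene of 35 histone-modifying enzymes, a list with a median change of -0.17, in which 10 members had an unadjusted p under 0.05 and a lower signal (939 of all 19938 genes did) and 2 a higher one (848 of all genes). The mean signal of the list was 7.15 and 7.01 at 0 min and 6.99 and 6.91 at 300 min. Thus 0 min replicate 2 lay close to 300 min replicate 1. Dot1l, another histone H3 methyltransferase, had a change of 0.62 (adjusted p = 0.0644), and Nsd1 (-0.50, 0.158) and Kdm5a (-0.43, 0.332) had negative ones. Tnrc6b, a scaffold of microRNA silencing that binds Argonaute, read 6.84 and 6.87 at 0 min and 6.19 and 6.21 at 300 min, a change of -0.65 ± 0.12 (adjusted p = 0.0404). Its relatives Tnrc6a (-0.33, adjusted p = 0.446) and Tnrc6c (-0.25, 0.608) did not pass. Of the 24 Argonaute and microRNA genes, 20 had a negative change, against 10087 of all 19938 genes, around a median of -0.06. Kmt2c lost its call in 7 and Tnrc6b in 6 of the 8 fits without 1 array.

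Mtr, methionine synthase, read 5.53 and 5.41 at 0 min and 4.80 and 4.68 at 300 min, a change of -0.73 ± 0.14 (adjusted p = 0.042), and was the 1 called gene of 15 in the folate and methionine cycle. Prox1, the homeobox factor that marks dentate granule cells, read 5.96 and 6.04 at 0 min and 5.23 and 5.44 at 300 min, a change of -0.66 ± 0.12 (adjusted p = 0.0392). In the list of 28 identity factors Prox1 was the 1 lower and Fezf2 the 1 higher gene, and the median change was 0.02. The arrays are bulk samples, so fewer granule cells and less Prox1 RNA per cell cannot be told apart. Nuak1, a kinase related to AMPK that shapes axon branching, read 6.99 on both arrays at 0 min and 6.37 and 6.39 at 300 min, a change of -0.61 ± 0.11 (adjusted p = 0.042). The gene 6720489N17Rik, for which no function is given here, read 4.92 and 5.27 at 0 min and 4.26 and 4.37 at 300 min, a change of -0.78 ± 0.14 (adjusted p = 0.0326), with both 300 min arrays below the olfactory receptor level of 4.46. Apart from Npy2r, each fall lost its adjusted p under 0.05 without at least 1 array, and 3 of the 12 kept it when the 4 arrays at 0 and 300 min were fitted alone, against 35 of the 45 rises.

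Over the spans of the RefSeq gene table the median length was 74.2 kb for the 12 lower genes, 19.1 kb for the 45 higher genes and 17.7 kb for all genes tested, or 21.9 kb for genes above the olfactory receptor level. Of the 12 lower genes 4 spanned over 100 kb (Trps1, Rps6ka5, Kmt2c and Tnrc6b), and of the 45 higher genes 4 did, against 2294 of the 19856 genes with a length. Npy2r, the largest fall, spanned 10.6 kb. No test was made of length, and its part in the falls was not tested.

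The 16 higher genes that belong to no list cover other functions. Ccnf, the F-box cyclin F, rose by 1.01 ± 0.12 (adjusted p = 0.00167) and kept its call without any 1 array. Pcdh8, an activity-regulated protocadherin that drives N-cadherin into the cell, rose by 0.80 ± 0.13 (adjusted p = 0.0193), and Hunk, a kinase related to AMPK, by 0.84 ± 0.12 (0.00656). Crybg3 rose by 0.96 ± 0.14 (adjusted p = 0.00681), Lonrf3, a RING finger protein, by 0.87 ± 0.15 (0.0213), and Kif18a, a kinesin of the mitotic spindle, by 0.81 ± 0.13 (0.0208). In these 3 genes both 0 min arrays lay below the olfactory receptor level of 4.46, so the size of their rises is measured against a background signal. Cpm, a membrane carboxypeptidase, rose by 0.92 ± 0.17 (adjusted p = 0.042) and Usp53 by 0.83 ± 0.16 (0.046). The remaining rises, in Gmeb2, Osgin2, Clba1, Rnft1, Aloxe3 and Stk40 beside Hcrtr2 and Usp2, ran from 0.65 to 0.78. Aloxe3 and Stk40 were not called in any of the 8 fits without 1 array.

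The genes called at 300 min were next placed in the time course. The comparisons of 30, 180 and 300 min with 0 min use the same 0 min arrays, so their calls are not independent of each other and are given side by side. At 180 min 66 genes differed from 0 min (0.331%) and at 30 min 19 (0.0953%). Of the 45 genes higher at 300 min, 28 were also called higher at 180 min, 4 at 30 min (Fosb, Npas4, Nr4a1 and Fos) and 17 at neither. Of the 12 lower genes, 9 were also called lower at 180 min and 0 at 30 min. The median change of the higher genes was 0.12 at 30 min, 0.81 at 180 min and 0.95 at 300 min, and that of the lower genes was -0.15, -0.68 and -0.75.

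**Figure D5:**
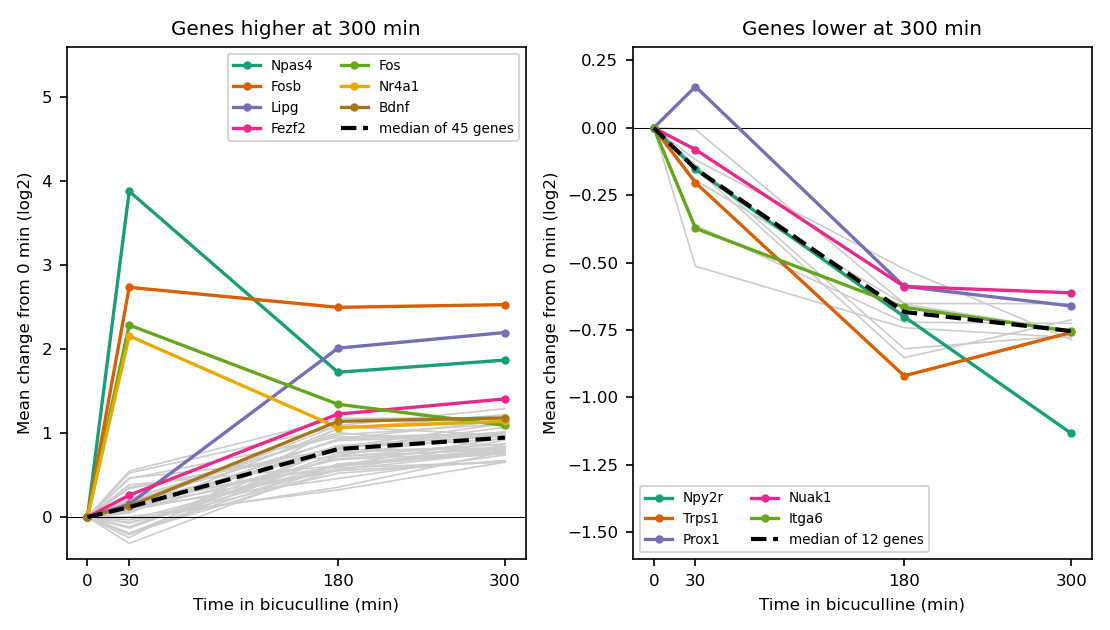
Lines give each gene's mean change from 0 min (log2, y axis) against time in bicuculline (min, x axis), for the 45 higher genes (left) and the 12 lower genes (right), with named genes in colour and the median as a dashed line. The medians reach 0.95 and -0.75 at 300 min, while Npas4 is highest at 30 min.

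The last 2 h brought no change that passed. Between 180 and 300 min limma called 0 genes (0%), and 1141 of the 19938 had an unadjusted p under 0.05. Between 0 and 300 min that threshold was passed by 848 genes with a higher signal and 939 with a lower one. The mean change of 42 of the 45 rises was larger at 300 than at 180 min, a direction that choosing the genes by their calls at 300 min favours. The genes called at 300 min and at no time before were Clk1, Nrn1, Ptgs2, Cpm, Usp53, Kif18a, Maff, Gmeb2, Sgk1, Osgin2, Clba1, Rnft1, Hcrtr2, Aloxe3, Stk40, Slc16a1 and Usp2 among the rises, and B3galt5, Itga6 and Prox1 among the falls. A call at 300 and not at 180 min does not show a difference between these times. Gmeb2 had a change of 0.36 at 180 min and 0.78 at 300 min, and Usp2 of 0.32 and 0.65, while Usp53 had 0.78 and 0.83. Npy2r was at -0.70 at 180 min and -1.13 at 300 min.

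Against 30 min, 33 of the 45 higher genes were higher at 300 min, 3 were lower (Npas4, Fos and Nr4a1), and 7 of the 12 lower genes were lower. Lipg, which differed from 0 min by 0.15 at 30 min, was 2.05 higher at 300 than at 30 min (adjusted p = 1.9e-06). Pcsk1 was 1.42 higher than at 30 min (adjusted p = 0.000179), Inhba 1.23 (0.00175), Nrn1 1.22 (0.000878) and Bdnf 1.05 (0.000878). Prox1 was 0.15 above 0 min at 30 min and 0.81 lower at 300 than at 30 min (adjusted p = 0.0047). These tests share the 300 min arrays with the comparison to 0 min.

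The arrays carried markers of neurons and of other cell types, and no marker passed the test. All 10 neuron markers and all 7 measured glutamatergic markers were above the olfactory receptor level. So were 11 of 12 GABAergic, all 10 astrocyte, 8 of 10 microglia, 7 of 9 oligodendrocyte lineage and 7 of 9 pericyte and fibroblast markers. Of endothelial markers 4 of 9 were above it, of dividing cells 4 of 8 and of ependymal and choroid plexus cells 4 of 6. The level was also passed by 13601 of all 19938 genes. The mean signal of the neuron list was 9.65 and 9.58 at 0 min and 9.62 and 9.72 at 300 min, and that of the astrocyte list 6.48 and 6.76 at 0 min and 6.56 and 6.40 at 300 min. Limma called 0 members of any of the 10 marker lists. At an unadjusted p under 0.05 there were 0 to 1 members per list. Among the glial lists, 8 of 10 astrocyte markers (median change -0.16), 8 of 9 oligodendrocyte lineage markers (-0.10) and 8 of 10 microglia markers (-0.09) had a negative change. So had 8 of 12 GABAergic markers (-0.06), 3 of 10 neuron markers (0.05) and 10087 of all 19938 genes. The part of these cell types in the falls was not tested. The largest change among those with an unadjusted p under 0.05 was -0.51 in Acta2, a gene of smooth muscle and fibroblasts (adjusted p = 0.334). Over 35399 rows the median signal of an array ran from 4.84 to 4.88, and the 2 arrays of each time had a Pearson correlation of at least 0.985.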

How the data were processed

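Biotin-labelled RNA of each culture was read on Mouse Gene ST 1.0 arrays of Affymetrix, per the labels' protocols. The authors deposited log2 signals, with 1 value for a transcript cluster on each array. That the log has base 2 is read from the range of the values, 1.22 to 14.96. For background correction, probe summary, normalization and build the sources used here name no method, and background left in dim signals would shrink their folds. No further normalization was applied. Of 35399 rows, 21789 had 1 gene symbol, 1621 several and 11989 none, and 21698 matched the RefSeq gene table. A gene with several clusters (999 genes) was read from the one with the highest mean.

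The test was limma 3.58.1 (R 4.3.3), two-sided, with 4 time means fitted on all 8 arrays (residual degrees of freedom 4, prior 10.1). An SE is limma's moderated one. The number of arrays limits the precision. The code was also run on simulated data. Their errors were independent, normal and drawn from the fit's own variance prior, so that run cannot test the calls made here.

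The comparison, its 32 gene lists and the 10 marker lists were chosen with earlier results of these data known; 812 of the 896 genes in the former were measured. Named are all genes that passed, with array values for the 15 largest rises and all falls, and up to 3 further members of a list by p. The level under which 95% of 1027 olfactory receptor genes lay marks background. Alternatives were other normalizations, filters, cluster rules and variance models, the replicate number as a block, and each array left out.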

Additional observations from a re-analysis of the deposited data

How the results depend on the processing

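All 57 genes kept their direction under all 17 alternatives run, but most of these could not reverse one. Many alter only the genes tested or the variance and leave the change itself as it is. Leaving out 1 array cannot reverse the sign where arrays do not overlap. The counts moved more. Restricted to genes above the olfactory receptor level, the test called 75 higher and 24 lower genes, and with an intensity trend in eBayes 72 and 20. Over every row of the value table it called 5 higher genes (Lipg, Fezf2, Grasp, Gpr3 and Npas4) and 0 lower ones. With only the 4 arrays of 0 and 300 min it called 37 higher and 4 lower genes. Arrays with the same replicate number showed no strong shared shift (correlations of deviations between -0.09 and 0.09), which cannot show whether they share a dissection. With the replicate block the test called 42 higher and 7 lower genes. Quantile normalization gave 50 and 9, centring each array on its median 37 and 12, the mean of all clusters 49 and 13, and robust eBayes 47 and 12. Leaving out single arrays gave 13 to 47 higher and 1 to 14 lower genes, and of the 57 genes 11 rises and 1 fall kept their calls in all 8 of these fits. Some of the fits without 1 array also called genes outside the 57. The fewer rows or arrays and the lower residual degrees of freedom belong to the construction of the alternative fits. The cause of the other shifts was not tested. With 2 arrays per time, small changes of a gene are not detectable, and dim genes can only be given relative to an unstated background.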
